A study of Mus musculus with 41 samples.

Results

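Melanomas collected 63 to 163 days after doxycycline was withdrawn were set against melanomas still on the drug. The late group held 10 tumours, 3 of day 63, 2 of day 77, 1 of day 90, 2 of day 121, 1 of day 136 and 1 of day 163, and the day 0 group held 4, so 14 of the 41 tumours of the series entered. Every tumour labelled with 63 or more days off the drug was taken, and genes were read from all probe sets that name exactly 1 gene. Both groups came from iBIP mice given doxycycline in the drinking water, which keeps a BRAF transgene on. The labels give only the strain name, which late and day 0 tumours share. RNA came from small pieces of trimmed frozen tumour and was hybridised to Affymetrix mouse genome arrays, 1 per tumour. Whether the late tumours had persisted or had grown back is not in the labels, nor is the mouse of each tumour. Hence p values measure only the spread between samples, which for genes was pooled over all days of the series. In whole tissue, fewer cells of a type and less RNA per cell cannot be told apart.

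BRAF activates MEK, and MEK activates ERK, a kinase that enters the nucleus and induces transcription factors, growth factors and its own inhibitors. ERK output also raises D-type cyclins, whose kinases release E2F transcription factors from the retinoblastoma protein and so start DNA replication and division. Melanocytes and Schwann cells both descend from the neural crest, and melanomas grow among fibroblasts, vessels, nerves and immune cells whose RNA is measured with that of the tumour cells.

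Values are log2 intensities after quantile normalisation, differences are late minus day 0 on that scale with their standard error (SE), and a gene was called at a limma adjusted p under 0.05. Degraded RNA loses the 5′ ends of transcripts, which widens the gap between the 3′ and 5′ control probe sets of Gapdh. That gap was between 0.27 and 4.41 in the late tumours with a median of 2.58, against 0.58, 0.47, 0.28 and 0.48 in the day 0 tumours. It was larger in the late group by 2.17 in an exact two-sided permutation test over all splits (p = 0.015), and the beta-actin gap by 1.57 (p = 0.002). Only 2 late tumours, 1 of day 77 and 1 of day 121, had a Gapdh gap under 2, at 0.60 and 0.27, and they are called the low-gap pair. The pair was chosen by the Gapdh gap alone. Its day 77 tumour had a beta-actin gap of 1.81, against at most 1.15 at day 0, so by beta-actin its gap was still wider. The beta-actin gap of the day 121 tumour lay within the day 0 range. By spike-in controls all day 0 arrays and the late arrays of days 136 and 163 fell into 1 set (set 3), while the other 8 late arrays, the low-gap pair included, fell into another (set 2). Results are therefore also given for the low-gap pair and for the pair of days 136 and 163, each against the same 4 day 0 tumours, and neither pair was free of both differences.

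**Figure D1:**
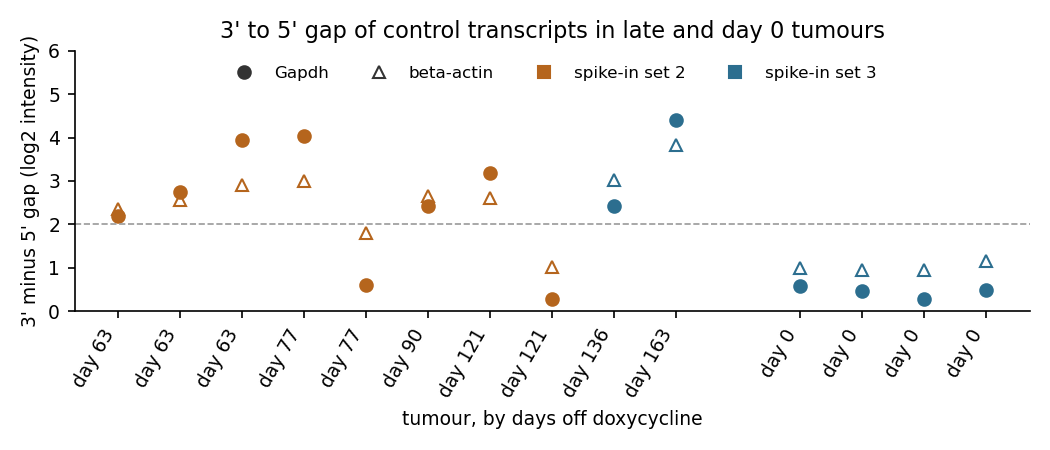
Gap between 3′ and 5′ control probe sets of Gapdh (circles) and beta-actin (triangles), in log2 intensity, for each late tumour on the left and each day 0 tumour on the right, coloured by spike-in set. The dashed line marks a gap of 2, which 8 of 10 late tumours and none of the 4 day 0 tumours exceed for Gapdh.

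Of 14319 genes tested, 3772 were higher in the late tumours (26.3%) and 2876 were lower (20.1%), so 46.4% were called in either direction. In 1450 genes every late tumour lay above every day 0 tumour (10.1%), and in 1098 every late tumour lay below (7.67%). The low-gap pair alone gave 1743 higher (12.2%) and 2041 lower (14.3%), and the pair of days 136 and 163 gave 2746 higher (19.2%) and 1543 lower (10.8%). The genes called the same way in all 10 tumours and in each pair numbered 898 higher (6.27%) and 703 lower (4.91%). The median difference over all genes tested was 0.05, and a list of genes is read against these shares.

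The 12 largest falls without overlap between the groups were Mmp1a, Prl8a9, Prkg2, Hmga2, Csn3, Slc14a1, Nppb, Prl6a1, Bmp2, Slc9a2, Stc1 and Dusp4, which ran from -5.06 for Mmp1a to -3.02 for Dusp4. Prkg2, which encodes a cGMP-dependent protein kinase, was 6.68 to 9.60 (median 7.58) in the late tumours, against 12.01, 11.59, 11.47 and 12.25 at day 0. Slc14a1, a urea transporter, was 6.59 to 8.31 (median 7.24) in the late tumours, against 11.49, 10.42, 10.96 and 11.33 at day 0. Neither gene overlapped between the groups, and the differences were -4.05 ± 0.46 and -3.69 ± 0.39, with adjusted p = 3.85e-08 and 1.68e-08. Placental prolactin-family hormones and a milk protein differed from these in that most of their spread lay at day 0. Prl8a9 was 4.41 to 4.60 (median 4.46) in the late tumours, against 12.11, 7.48, 6.51 and 10.33 at day 0. Csn3, which encodes kappa casein, was 5.07 to 6.33 (median 5.40) in the late tumours, against 7.49, 9.76, 10.94 and 8.43 at day 0. The late values were low in both genes while the day 0 tumours differed widely among themselves, and not in the same order. Values this low lie near the bottom of the scale, where the pseudocount of 16 added before log2 compresses differences. The spread of the late and day 0 groups is therefore not comparable in these genes. Of the 12, only Prl6a1 missed the threshold in the low-gap pair (difference -3.39, adjusted p = 0.0523), and all 12 were called in the pair of days 136 and 163.

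The 12 largest rises without overlap were Kcna1, Mal, Defb6, Cytl1, Mbp, Dpt, Scn7a, Cyp2f2, Steap4, Abca8a, Fgf5 and Cd36, which ran from 5.40 to 3.97. They included nerve genes, described further on, and genes with other roles. Steap4, a metalloreductase, was 10.33 to 12.35 (median 10.95) in the late tumours, against 7.37, 7.33, 6.69 and 6.85 at day 0. Fgf5, a fibroblast growth factor best known for ending the growth phase of hair, was 7.66 to 10.33 (median 9.64) in the late tumours, against 6.37, 5.0, 4.95 and 5.20 at day 0. Cd36, a fatty acid and scavenger receptor, was 7.56 to 9.76 (median 8.86) in the late tumours, against 4.72, 5.06, 4.77 and 4.71 at day 0. In all 3 the groups were apart, and the differences were 4.10 ± 0.44, 4.02 ± 0.52 and 3.97 ± 0.48. Defb6, a beta-defensin, reached 5.23 over the 10 tumours, but was at 2.77 in the low-gap pair (adjusted p = 0.115), where it was not called. The other 11 were called in the low-gap pair, and all 12 in the pair of days 136 and 163.

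**Figure D2:**
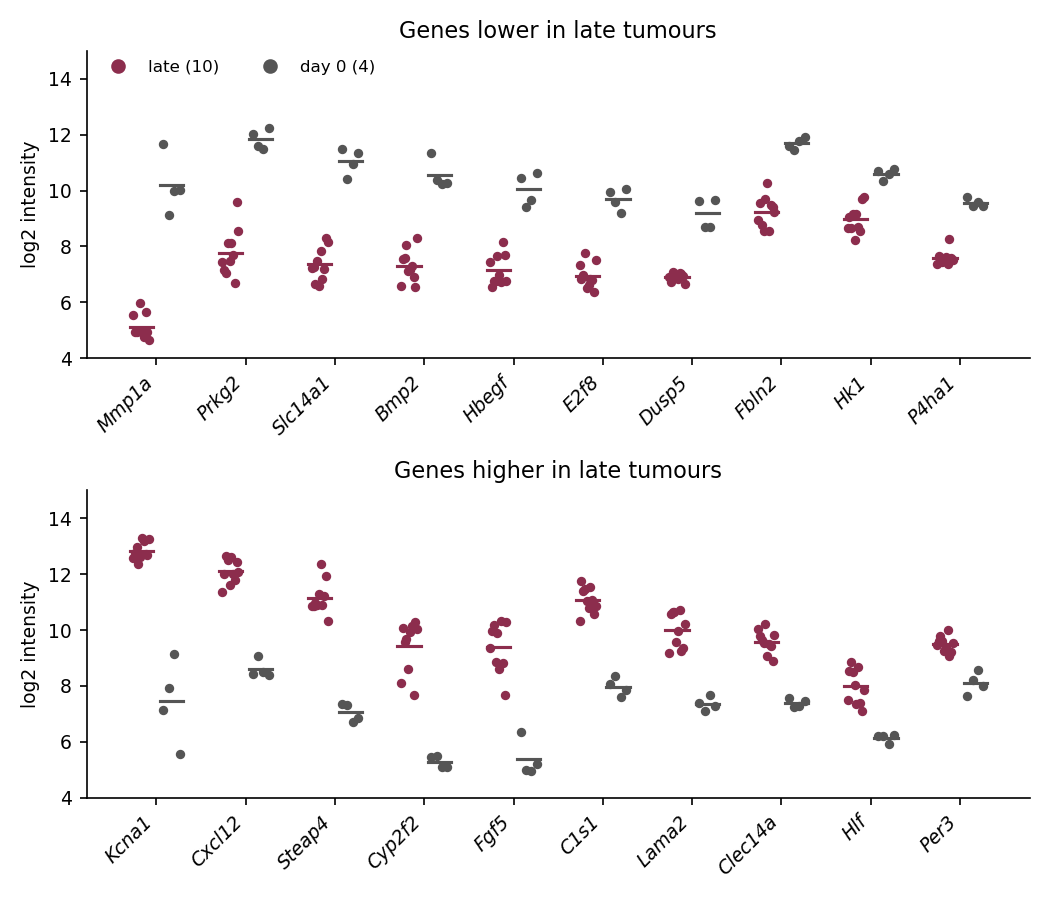
Log2 intensity of 10 genes that were lower (top) and 10 that were higher (bottom) in the late tumours, with the late tumours to the left of each name, the day 0 tumours to the right, 1 point per tumour and a line at the group mean. No late tumour overlaps a day 0 tumour in any of these 20 genes, for example Dusp5 at 7.08 or less in late tumours against 8.71 or more at day 0.

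Genes that ERK induces were low in the late tumours. The list of ERK phosphatases and feedback inhibitors also holds Sprr1a, an envelope protein of keratinocytes, which was not called. Of its 17 members tested, 13 fell and 1 rose, with a median of -0.72, and 6 had all late tumours below all day 0 tumours. Of 22 ERK-induced transcription factors and targets, 14 fell and 1 rose, with a median of -0.86. Dusp5, a phosphatase that holds ERK in the nucleus, was 6.67 to 7.08 (median 6.94) in the late tumours, against 9.62, 8.71, 8.71 and 9.68 at day 0. Spred3, an inhibitor of RAS to RAF signalling, was 5.60 to 6.48 (median 5.92) in the late tumours, against 8.51, 7.45, 7.59 and 8.61 at day 0. Fosl1, a subunit of the AP-1 transcription factor, was 5.34 to 7.86 (median 6.32) in the late tumours, against 9.10, 8.51, 8.43 and 8.84 at day 0. The late tumours lay within a narrow band for Dusp5 and Spred3 and spread more for Fosl1, and no gene of the 3 overlapped.

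The fall in Fosl1 was -2.35 ± 0.30 (adjusted p = 2.29e-07), and it was -2.11 in the low-gap pair and -1.71 in the pair of days 136 and 163. Etv4, an ETS transcription factor, changed by -1.46 ± 0.16, and Plaur, the urokinase receptor, by -2.11 ± 0.30. Lif, a cytokine of the interleukin 6 family, changed by -1.21 ± 0.21. Not every ERK-related gene was lower. Fos differed by -0.32 ± 0.37 and Myc by -0.27 ± 0.27, and Spry1 and Dusp10 by -0.13 ± 0.22 and 0.01 ± 0.18, none of them called. Of the feedback genes 11 were lower in the low-gap pair and 7 in the pair of days 136 and 163, and of the targets 14 and 9. The array holds 9 mouse Braf probe sets, of which 4 were higher and 2 lower, and which of them would read the transgene is not known, so they do not check the withdrawal.

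Among 21 tested ligands of receptor tyrosine kinases 6 rose and 6 fell, beside 26.3% and 20.1% of all genes, with a median of 0.15. The falls were led by ligands of the EGF receptor family. Hbegf, heparin-binding EGF-like growth factor, was 6.57 to 8.14 (median 6.87) in the late tumours, against 10.45, 9.4, 9.68 and 10.64 at day 0. Ereg, epiregulin, was 6.28 to 9.42 (median 6.99) in the late tumours, against 10.99, 9.73, 9.47 and 10.41 at day 0. Both were apart between the groups, Ereg by only a narrow margin, with differences of -2.90 ± 0.32 and -2.70 ± 0.44. Vegfa, the main growth factor of blood vessels, differed by -1.19 ± 0.25, but by -0.67 in the pair of days 136 and 163, where it was not called (adjusted p = 0.142).

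Rises among the ligands included Igf1, insulin-like growth factor 1, at 1.88 ± 0.40, and Gas6, the ligand of Axl, at 1.98 ± 0.37. Gas6 was 8.96 to 11.40 (median 9.80) in the late tumours, against 7.95, 8.44, 8.47 and 7.01 at day 0, without overlap. Igf1 was not called in the pair of days 136 and 163 (1.41, adjusted p = 0.064). Of 25 receptors tested 8 rose and 3 fell, beside 26.3% and 20.1% of all genes. The number higher was 5 without day 0 replicate 4, and the number lower was 5 without late replicate 10. In the low-gap pair no receptor was higher and 5 were lower, beside 12.2% and 14.3% of all genes. In the pair of days 136 and 163 the counts were 5 and 1, beside 19.2% and 10.8%. Kit rose by 1.57 and its difference in the low-gap pair was 0.56, which was not called, while Axl fell by 0.68 and was lower in both pairs. The most intense Egfr probe set differed by 1.00, and of its 6 probe sets 2 were higher and 1 was lower, so its direction is uncertain.

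Matrix proteases and their inhibitors held both the largest fall of all genes and a rise. Of 21 tested 8 fell and 3 rose. Mmp1a, an interstitial collagenase, was 4.65 to 5.99 (median 4.94) in the late tumours, against 11.65, 9.12, 9.98 and 10.03 at day 0. Timp1, an inhibitor of such proteases, was 9.33 to 11.60 (median 10.90) in the late tumours, against 13.18, 12.48, 12.84 and 13.07 at day 0. Its relative Timp4 was 6.06 to 8.34 (median 6.92) in the late tumours, against 4.96, 4.98, 4.86 and 4.88 at day 0. Mmp1a and Timp1 were thus lower and Timp4 higher in every late tumour, by -5.06 ± 0.78, -2.32 ± 0.33 and 2.28 ± 0.30. Mmp14, a membrane protease, fell by 1.39, and was not called in the low-gap pair (-0.96, adjusted p = 0.0505). Collagenase genes are textbook AP-1 targets. The 250 bases upstream of the Mmp1a start in RefSeq (GRCm38.p6, chr9:7463891-7464140, plus strand) are therefore shown. Capitals mark the AP-1 letters TGAGTCA, searched on both strands.
Mmp1a: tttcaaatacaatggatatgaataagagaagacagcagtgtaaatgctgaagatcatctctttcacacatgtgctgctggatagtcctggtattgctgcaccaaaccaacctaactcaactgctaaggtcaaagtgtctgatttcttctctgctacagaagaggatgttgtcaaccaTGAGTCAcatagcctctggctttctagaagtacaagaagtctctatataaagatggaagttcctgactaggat
The match begins 73 bases before the start, and 5.16% of 27025 genes with a listed promoter hold these letters in the same window on either strand. In the list of ERK-induced targets 3 of 15 genes with a promoter held it. The match does not show binding, and its part in the fall of Mmp1a was not tested.

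Cell division genes fell, but the size of the fall depended on which late tumours were read. Of 35 mitosis genes tested 32 fell and none rose, with a median of -1.13. Of 15 genes for G1 cyclins, their kinases and E2F factors 12 fell and none rose, with a median of -0.81, and in 9 of them every late tumour lay below every day 0 tumour. Of 33 DNA replication genes 16 fell and 1 rose, and the number lower was 10 without day 0 replicate 2, 3 or 4. The mean level of the mitosis list was between 6.14 and 7.96 with a median of 7.22 in the late tumours, against 7.78, 8.34, 8.68 and 8.57 at day 0. The low-gap pair stood at 7.62 and 7.94 and the tumours of days 136 and 163 at 6.14 and 7.31. Hence 7 mitosis genes were lower in the low-gap pair, against all 35 in the pair of days 136 and 163, with medians of -0.58 and -1.57. For the G1 list the counts were 8 and 11, with medians of -0.61 and -0.98. The difference between the pairs was not tested.

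E2f8 and E2f7 encode atypical E2F factors that repress E2F targets late in the cycle and are themselves E2F targets. E2f8 was 6.36 to 7.78 (median 6.84) in the late tumours, against 9.93, 9.58, 9.18 and 10.04 at day 0. E2f7 was 5.77 to 7.19 (median 6.62) in the late tumours, against 7.63, 7.99, 8.21 and 8.73 at day 0. Neither overlapped, and both were called in each pair, E2f8 at -3.03 and -2.74 and E2f7 at -1.34 and -1.55. Ccnd1, cyclin D1, changed by -2.16 ± 0.24, its partner kinase Cdk4 by -1.16 ± 0.18 and the activator E2f1 by -1.13 ± 0.14, all without overlap.

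Cdc20, the activator of the anaphase-promoting complex, was 8.10 to 9.16 (median 8.66) in the late tumours, against 9.46, 9.89, 10.16 and 10.23 at day 0. Cdk1, the mitotic kinase, was 6.17 to 9.89 (median 7.99) in the late tumours, against 9.01, 9.47, 9.77 and 9.96 at day 0. Cdc20 was apart between the groups and Cdk1 was not. Cdk1 differed by -0.05 in the low-gap pair (adjusted p = 0.929) and by -2.60 in the pair of days 136 and 163 (adjusted p = 0.000199). Top2a, topoisomerase 2 alpha, showed the same spread, at -0.63 and -2.25, whereas Plk1, Aurka, Cdc20 and the regulator Foxm1 were lower in both pairs. Among replication genes Mcm2, part of the replicative helicase, changed by -1.07 ± 0.20, and Rrm2, a subunit of the enzyme that makes deoxynucleotides, by -1.39 ± 0.29. Pcna, the sliding clamp, differed by 0.07 ± 0.15 and was not called.

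Mitotic promoters commonly carry CCAAT boxes and a CHR element, and G1 to S promoters carry E2F sites, so the 250 upstream bases of E2f7 (chr10:110745189-110745438, plus strand), E2f8 (chr7:48881597-48881846, minus strand) and Cdc20 (chr4:118437344-118437593, minus strand) are printed from the same RefSeq build. Capitals mark CCAAT, the CHR letters TTTGAA and the E2F letters TTTGGCGC, TTTCCCGC, TTTCGCGC or TTTGCCGC, each on either strand.
E2f7: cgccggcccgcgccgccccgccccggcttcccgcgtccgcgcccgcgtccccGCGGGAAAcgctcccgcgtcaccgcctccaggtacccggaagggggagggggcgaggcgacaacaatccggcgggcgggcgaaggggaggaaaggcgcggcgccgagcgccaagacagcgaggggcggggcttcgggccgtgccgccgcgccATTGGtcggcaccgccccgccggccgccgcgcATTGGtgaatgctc
E2f8: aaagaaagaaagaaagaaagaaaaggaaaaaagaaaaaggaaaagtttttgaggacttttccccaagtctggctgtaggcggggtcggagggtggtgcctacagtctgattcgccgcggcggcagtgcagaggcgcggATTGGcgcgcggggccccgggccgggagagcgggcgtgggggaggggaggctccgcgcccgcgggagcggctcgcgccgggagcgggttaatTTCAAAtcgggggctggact
Cdc20: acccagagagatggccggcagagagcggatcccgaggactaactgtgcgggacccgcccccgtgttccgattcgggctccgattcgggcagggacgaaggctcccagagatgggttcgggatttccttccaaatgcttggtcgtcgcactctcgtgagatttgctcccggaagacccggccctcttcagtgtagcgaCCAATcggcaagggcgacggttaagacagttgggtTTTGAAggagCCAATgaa
The capitals are 1 E2F match and 2 CCAAT boxes in E2f7, 1 CCAAT box and 1 CHR in E2f8, and 2 CCAAT boxes and 1 CHR in Cdc20, and no capitals overlap. A CCAAT box was found in 25 of 31 mitosis genes with a promoter, against 37.5% of all genes, and TTTGAA in 10 of 31, against 18.3%. CCAAT was also held by 8 of 12 G1, 19 of 30 replication, 11 of 16 circadian clock and 6 of 15 ERK-induced target genes. TTTGAA was held by 4, 4, 0 and 2 of them in the same order. The E2F letters were found in 4 of 12 G1 genes and 9 of 30 replication genes, against 2.16% of all genes. These matches describe the sequence and do not show binding.

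Among inhibitors of the cell cycle 8 of 21 rose and 2 fell, beside 26.3% and 20.1% of all genes. In the low-gap pair 2 were higher and 2 lower, beside 12.2% and 14.3% of all genes. The pair of days 136 and 163 had 7 higher and 1 lower, beside 19.2% and 10.8%. Cdkn2b, an inhibitor of cyclin D kinases, was 7.16 to 8.11 (median 7.70) in the late tumours, against 9.21, 9.38, 9.69 and 9.36 at day 0. Txnip, which binds thioredoxin and restrains glucose uptake, was 10.26 to 11.74 (median 10.91) in the late tumours, against 9.67, 9.75, 9.11 and 9.41 at day 0. Cdkn2b was lower and Txnip higher in every late tumour, by -1.77 ± 0.20 and 1.47 ± 0.21, and in both pairs. Cdkn1a, the p53-induced inhibitor, fell by 1.49, but the difference of -0.90 in the pair of days 136 and 163 was not called. Cdkn1b rose by 0.75 and Rb1, the retinoblastoma gene, by 0.71. The number of lower inhibitors became 4 without late replicate 6.

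Glycolysis genes fell together and did so in both pairs. Of 16 tested 12 fell and none rose, with a median of -0.92, and in 10 of them the late tumours all lay below day 0. Hk1, a hexokinase, was 8.24 to 9.76 (median 8.87) in the late tumours, against 10.68, 10.36, 10.58 and 10.78 at day 0. Pfkl, a phosphofructokinase, was 6.87 to 8.49 (median 7.35) in the late tumours, against 9.53, 8.83, 9.22 and 9.29 at day 0. Pgam1, a phosphoglycerate mutase, was 9.43 to 10.33 (median 10.03) in the late tumours, against 11.23, 11.29, 11.40 and 11.26 at day 0. All 3 were apart, with adjusted p of 3.34e-07, 4.33e-07 and 8.52e-07. The list had 13 lower members in the low-gap pair and 8 in the pair of days 136 and 163, with medians of -0.91 and -0.72. Ldha, lactate dehydrogenase, changed by -0.90 ± 0.16 and Tpi1, triosephosphate isomerase, by -0.84 ± 0.13. Gapdh itself changed by -1.29 ± 0.19, and its control probe sets are those that define the gap. Pfkp differed by -0.23 ± 0.17 over the 10 tumours and was not called, but its other 2 probe sets were lower, by -0.76 and -1.51, so its call rests on the probe set.

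Of 17 hypoxia-induced genes 8 fell and 1 rose, beside 20.1% and 26.3% of all genes. In the low-gap pair 6 were lower and in the other pair 2, beside 14.3% and 10.8% of all genes. P4ha1, a collagen prolyl hydroxylase, was 7.36 to 8.27 (median 7.54) in the late tumours, against 9.76, 9.43, 9.58 and 9.44 at day 0, without overlap. Plod2, a collagen lysyl hydroxylase, changed by -1.30 ± 0.22. Car9, a carbonic anhydrase, changed by -1.04 ± 0.28 and was not called in the pair of days 136 and 163. Genes of cholesterol synthesis went the other way over the 10 tumours. Of 16 tested 7 were higher and none lower, beside 26.3% and 20.1% of all genes, but 3 higher without day 0 replicate 4. In the low-gap pair 4 were higher and 1 lower, beside 12.2% and 14.3% of all genes. The pair of days 136 and 163 had 3 higher and none lower, beside 19.2% and 10.8%. Idi1, an isomerase of that pathway, changed by 1.55 ± 0.29, Hmgcs1, its synthase, by 1.23 ± 0.24 and Insig1, its sterol-regulated brake, by 1.06 ± 0.24. Among 26 ribosome biogenesis genes 6 fell and none rose, beside 20.1% and 26.3% of all genes. The late tumour of day 136 had a mean level of 9.61 on that list, above the other 9, and without it 13 members were lower. In the low-gap pair 13 were lower and none higher, with a median of -0.47, where 14.3% and 12.2% of all genes were. In the pair of days 136 and 163 the list had 2 lower and 4 higher, with a median of 0.14. The shares of all genes there were 10.8% lower and 19.2% higher.

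**Figure D3:**
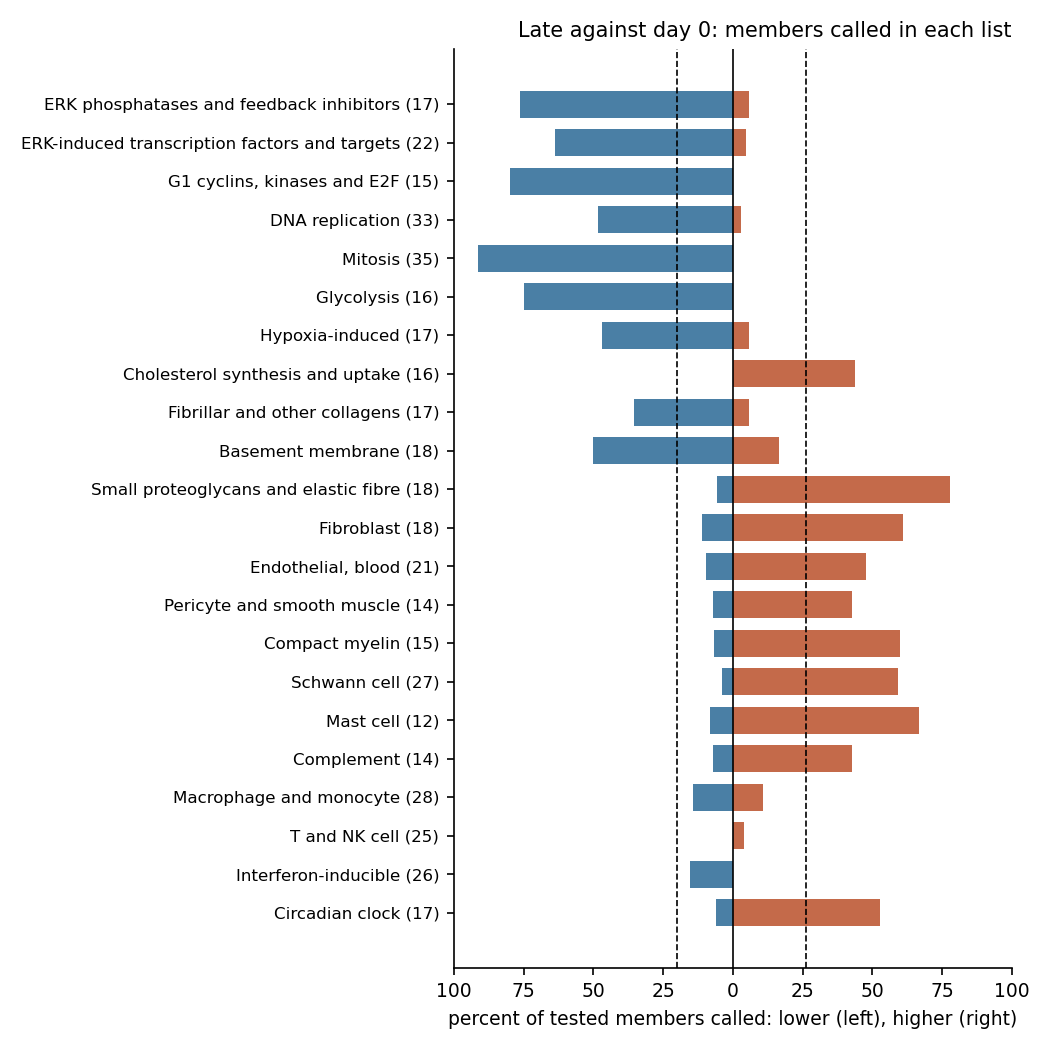
Share of the tested members of 22 gene lists called lower (left) or higher (right) in late against day 0 tumours, with the number tested after each name and dashed lines at the shares over all genes, 20.1% lower and 26.3% higher. Division, glycolysis and ERK lists reach far to the left, and proteoglycan, mast cell and nerve lists to the right.

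Matrix lists differed in their counts. Of 18 small proteoglycans and elastic fibre genes 14 rose and 1 fell, with a median of 1.60, while of 17 collagens 6 fell and 1 rose, and of 18 basement membrane genes 9 fell and 3 rose. Abi3bp, a matrix protein, was 9.76 to 10.86 (median 10.30) in the late tumours, against 7.84, 7.33, 7.64 and 6.17 at day 0. Fbln2, fibulin 2, was 8.55 to 10.27 (median 9.32) in the late tumours, against 11.61, 11.46, 11.78 and 11.93 at day 0. Lama2, a laminin chain of muscle and nerve basement membranes, was 9.18 to 10.71 (median 10.10) in the late tumours, against 7.40, 7.12, 7.66 and 7.27 at day 0. Abi3bp and Lama2 were higher and Fbln2 lower in every late tumour and in both pairs, by 3.00 ± 0.39, 2.65 ± 0.35 and -2.45 ± 0.24. Col6a3, a chain of collagen VI, changed by -1.55 ± 0.32, and Col11a1, a fibril-nucleating collagen, by -2.02 ± 0.38, each without overlap. Col3a1 differed by 0.16 ± 0.13, and Col1a1, the main fibrillar collagen, by -0.49 ± 0.34, which was called only when day 0 replicate 4 was left out (-0.88, adjusted p = 0.043). The proteoglycan counts were smaller within pairs, at 5 higher in the low-gap pair and 3 higher with 2 lower in the other, where 19.2% of all genes were higher.

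Fibroblast genes were higher in 11 of 18 and lower in 2, and higher in 7 without day 0 replicate 4. Dpt, dermatopontin, was 9.00 to 12.55 (median 11.93) in the late tumours, against 8.64, 6.63, 7.05 and 7.92 at day 0. Pi16, a gene of adventitial fibroblasts, was 7.51 to 10.07 (median 8.96) in the late tumours, against 6.34, 6.63, 6.52 and 6.57 at day 0. Cxcl12, a chemokine made by stromal cells that attracts leukocytes and progenitors, was 11.36 to 12.64 (median 12.05) in the late tumours, against 8.44, 9.06, 8.48 and 8.40 at day 0. These 3 did not overlap, and Cxcl12 was 3.11 higher in the low-gap pair and 3.66 higher in the pair of days 136 and 163. Dcn, decorin, differed by 0.74 ± 0.21 over the 10 tumours and was called in neither pair. Its other probe set was higher by 2.02 over the 10 tumours, so the size of its rise depends on the probe set.

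Vessel genes rose in part. Among 21 blood endothelial genes 10 rose and 2 fell, but 5 rose without day 0 replicate 2 and 6 without day 0 replicate 3. Clec14a, a C-type lectin of endothelium, was 8.91 to 10.21 (median 9.58) in the late tumours, against 7.59, 7.24, 7.28 and 7.46 at day 0. Mmrn1, multimerin 1, which marks lymphatic endothelium and platelets, was 7.62 to 10.16 (median 9.49) in the late tumours, against 6.89, 5.60, 5.39 and 5.81 at day 0. Neither overlapped, and both were higher in each pair. Tek, the angiopoietin receptor, changed by 1.82 ± 0.34, Ramp2, an adrenomedullin receptor component, by 1.74 ± 0.27, and the transcription factor Erg by 1.20 ± 0.22. The VEGF receptors did not follow, with Kdr at -0.27 ± 0.29, not called, and Flt1 at -0.82 ± 0.24, called lower but not in the pair of days 136 and 163 (-0.15). Lyve1, a hyaluronan receptor of lymphatics and some macrophages, rose by 2.81, and 4 of 7 lymphatic genes rose. Of 14 pericyte and smooth muscle genes 6 rose and 1 fell. Rgs5, a pericyte regulator of G protein signalling, changed by 2.22 ± 0.40, and Cspg4, a proteoglycan of pericytes and of melanoma cells, by -2.51 ± 0.28, both without overlap. Of 4 Rgs5 probe sets 2 were higher, and the rest, at 0.84 and -0.02, were not called.

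Of 13 fat cell genes 7 rose and 1 fell. Fabp4, a fatty acid carrier of fat cells, capillaries and macrophages, was 9.86 to 11.61 (median 10.25) in the late tumours, against 8.78, 5.81, 5.46 and 5.94 at day 0, without overlap. Adipoq, the fat cell hormone adiponectin, was 4.57 to 8.35 (median 4.76) in the late tumours, against 4.67, 4.72, 4.70 and 4.75 at day 0. It was near the day 0 level in most late tumours and highest in 1 tumour of day 77. Scd1, a fatty acid desaturase, rose by 2.08 and Lpl, lipoprotein lipase, by 2.81, and neither was called in the low-gap pair, where 1 member of the list rose.

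Nerve sheath genes were among the largest rises, in a pattern that left out part of the myelin set. Of 27 Schwann cell genes 16 rose and 1 fell, and 12 had every late tumour above day 0. Of 15 compact myelin genes 9 rose and 1 fell. The mean Schwann cell level was between 9.23 and 9.80 with a median of 9.56 in the late tumours, against 8.08, 8.12, 8.72 and 8.06 at day 0. Kcna1, an axonal and glial potassium channel, was 12.35 to 13.28 (median 12.75) in the late tumours, against 7.14, 7.94, 9.14 and 5.56 at day 0. Mal, a lipid raft protein of myelin, was 10.27 to 11.58 (median 11.15) in the late tumours, against 5.06, 5.83, 6.79 and 5.28 at day 0. The groups were several log2 units apart in both genes, and day 0 replicate 3 had the highest day 0 value of each. Plekhb1, a membrane-binding protein of myelinating and sensory cells, was 10.17 to 11.70 (median 11.15) in the late tumours, against 7.58, 8.63, 9.59 and 7.46 at day 0. Aspa, which splits N-acetylaspartate in myelinating glia, was 10.42 to 11.75 (median 11.20) in the late tumours, against 8.66, 8.01, 8.86 and 8.90 at day 0. Again day 0 lay apart from every late tumour. Cldn11, a claudin of myelin in the central nervous system and of other barriers, changed by 3.61 ± 0.52, Ugt8a, the enzyme of galactocerebroside synthesis, by 2.00 ± 0.31, Gpr37l1, a glial receptor, by 2.83 ± 0.41 and Cnp, a myelin phosphodiesterase, by 1.71 ± 0.26.

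These rises were present in the low-gap pair, with 12 Schwann cell and 5 myelin members higher, and in the pair of days 136 and 163, with 13 and 9. Mag, myelin-associated glycoprotein, was 5.79 to 6.13 (median 6.06) in the late tumours, against 5.91, 5.75, 5.88 and 6.03 at day 0, and was not called. Dhh, the hedgehog ligand of Schwann cells, was 6.54 to 7.78 (median 7.20) in the late tumours, against 8.65, 8.19, 9.32 and 8.81 at day 0, without overlap. It was the only member of its list called lower, while 16 were higher and 10 were not called. Ngfr, the low-affinity neurotrophin receptor, changed by 1.30 ± 0.29 and was not called in the low-gap pair. Axon and neuron genes did not share a direction, with 3 of 15 higher and 2 lower. Nefl, a neurofilament, was 5.02 to 8.82 (median 7.01) in the late tumours, against 12.02, 8.66, 9.14 and 11.11 at day 0, and Gap43, a growth cone protein, rose by 2.73. For Nefl the groups touched, since the late maximum exceeded the lowest day 0 value.

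**Figure D4:**
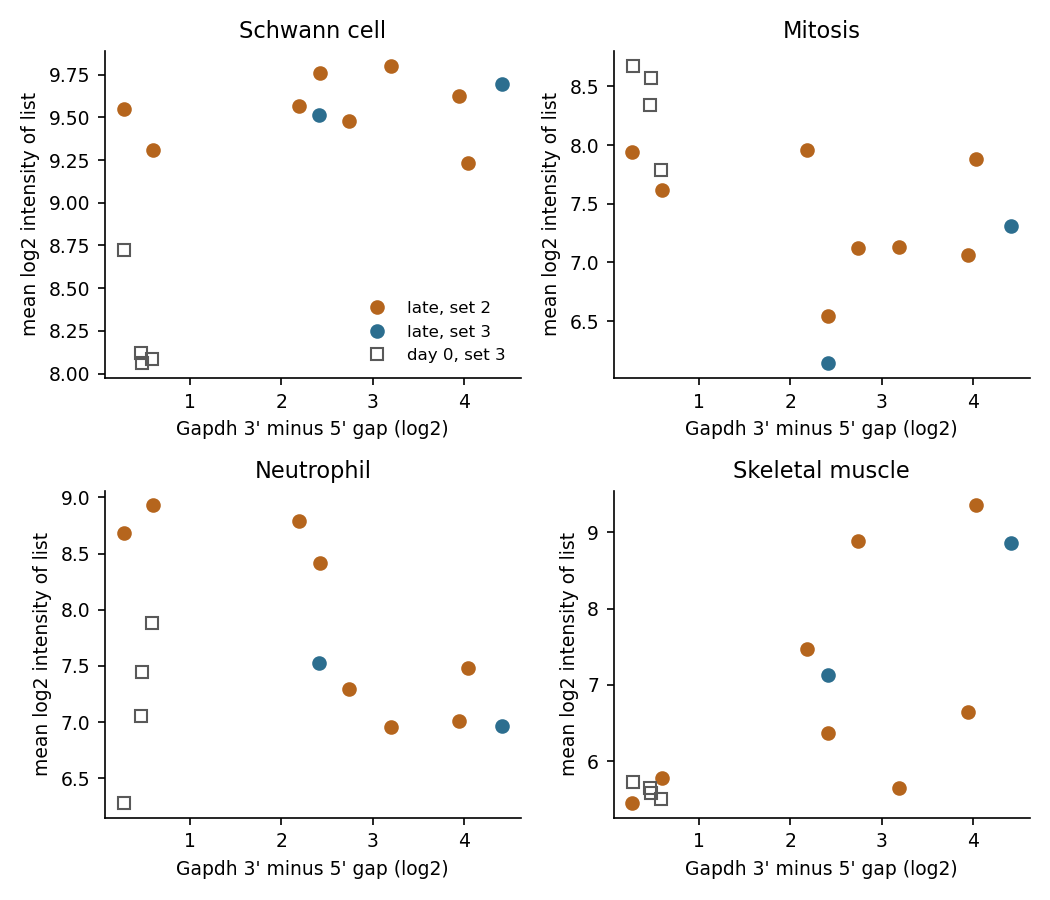
Mean log2 intensity of 4 gene lists in each tumour against its Gapdh 3′ to 5′ gap, with filled circles for late tumours, coloured by spike-in set, and open squares for day 0. Schwann cell genes stand above day 0 in all 10 late tumours whatever the gap, muscle genes in the 2 low-gap tumours sit at 5.78 and 5.45 near the day 0 level, and neutrophil genes are high in those tumours and in 2 others with gaps over 2.

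Melanocyte genes showed no common fall. Of 17 tested 7 rose and 2 fell, 3 rising without day 0 replicate 2 or 4 and 4 without late replicate 2 or 3, and none rose in the low-gap pair. Sox10, a neural crest transcription factor of melanocytes and Schwann cells, was 9.22 to 10.86 (median 10.05) in the late tumours, against 10.12, 9.85, 10.61 and 10.46 at day 0. Mitf, the master regulator of melanocytes, was 7.97 to 9.82 (median 9.07) in the late tumours, against 7.83, 8.06, 7.80 and 7.24 at day 0. Sox10 was not called (-0.20 ± 0.27), although 1 of its other 2 probe sets was lower (-0.64), and Mitf rose by 1.22 over the 10 tumours, with 0.40 in the low-gap pair (adjusted p = 0.332). Pax3, a neural crest factor upstream of Mitf, fell by 1.64, with -0.41 in the low-gap pair (adjusted p = 0.55). Dct, a pigment enzyme, differed by 0.57 ± 0.37 and was not called. Tyr did not pass the filter on low values.

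Immune genes were mostly near day 0, except in a few classes. Of 28 macrophage genes 3 rose and 4 fell, 5 rising without late replicate 9, with 2 falling without day 0 replicate 1 and 1 without replicate 2. Of 25 T and NK cell genes 1 rose. Lyz2, lysozyme of macrophages and neutrophils, was 11.28 to 12.93 (median 12.73) in the late tumours, against 11.36, 11.92, 11.03 and 9.96 at day 0. Apoe, apolipoprotein E, was 11.11 to 13.67 (median 12.67) in the late tumours, against 10.27, 11.57, 11.48 and 9.26 at day 0. Both rose, by 1.36 and 2.01, with overlap of the groups, and Lyz2 was not called in the pair of days 136 and 163 (0.43). The 3 chains of C1q disagreed. C1qa fell by 2.45 over the 10 tumours but differed by 0.02 in the low-gap pair, and C1qb and C1qc differed by -0.34 and -0.46, which was called only without day 0 replicate 4. C1qa was 6.49 to 11.02 (median 7.88) in the late tumours, and the low-gap pair held 10.35 and 11.02, against 11.07, 11.46, 10.57 and 9.55 at day 0.

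Among 26 interferon-inducible genes 4 fell and none rose. Their mean level was between 7.51 and 8.58 with a median of 8.09 in the late tumours, against 7.38, 9.86, 7.84 and 8.18 at day 0, where replicate 2 stood above the other 3. Without it 4 were higher and none lower. No gene of 12 for MHC class I and antigen presentation and none of 9 for class II was called, but 4 of the class I genes were higher without day 0 replicate 2. Set against the mean of days 6 and 9 in the same fit, all 26 interferon genes and all 12 class I genes were lower in the late tumours, as were 12 of 25 T and NK cell and 14 of 28 macrophage genes, where 13.8% of all genes were lower. The day 6 arrays were all in a spike-in set that holds no late array, and their Gapdh gap averaged -0.11, against 2.62 in the late tumours. In the low-gap pair 20 interferon, 11 class I, 2 T and NK cell and 4 macrophage genes were lower, where 3.90% of all genes were. With the gap as covariate the counts were 23, 11, 5 and 8, against 3.34% of all genes, and blocking on spike-in set gave 23, 11, 15 and 16, against 6.84%. Gbp2, a guanylate-binding protein, differed by -1.52 from days 6 and 9 and by 0.49 from day 0, the second not called.

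Complement genes of the classical and alternative pathways were higher in part. Of 14 tested 6 rose and 1 fell, with 7 higher in the low-gap pair and 6 in the pair of days 136 and 163. C1s1, a protease of the C1 complex, was 10.31 to 11.76 (median 11.06) in the late tumours, against 8.05, 8.34, 7.60 and 7.85 at day 0. Serping1, the inhibitor of that protease, was 11.06 to 12.33 (median 11.75) in the late tumours, against 9.34, 9.86, 9.15 and 8.48 at day 0. Both were apart, and so were C1ra, the other C1 protease, at 2.46 ± 0.30, and Cfb, factor B, at 1.86 ± 0.29. C2, the second component, rose by 2.42. Mast cell genes rose in 8 of 12 and fell in 1, with 3 and 5 rising within the pairs. Ms4a2, a chain of the IgE receptor, changed by 2.53 ± 0.42, and Hdc, the enzyme that makes histamine, by 2.10 ± 0.42, both without overlap. Cxcl13, a chemokine for B cells, was 8.87 to 13.31 (median 10.76) in the late tumours, against 5.24, 6.84, 8.97 and 5.66 at day 0, a difference of 4.18 ± 0.72.

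Neutrophil levels differed among the late tumours. Of 17 tested 3 rose and 1 fell, and 9 rose in the low-gap pair, with a median of 2.42 there, while none was called in the pair of days 136 and 163. The mean level of the list was 8.93 and 8.68 in the low-gap pair and between 6.95 and 8.93 with a median of 7.50 over the 10, against 7.88, 7.06, 6.28 and 7.45 at day 0. Csf3r, the receptor for granulocyte colony-stimulating factor, was 6.11 to 10.26 (median 7.14) in the late tumours, against 8.19, 6.91, 6.33 and 7.24 at day 0. It was not called over the 10 tumours and differed by 2.89 in the low-gap pair (adjusted p = 0.000516). S100a9, a calprotectin subunit of neutrophils and stressed keratinocytes, rose by 3.84, and by 5.05 in the low-gap pair.

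Skin and muscle genes marked some late tumours and not others, although skin had been trimmed. Of 21 skeletal muscle genes 13 rose, none of them in the low-gap pair and 15 in the pair of days 136 and 163. Their mean level was between 5.45 and 9.35 with a median of 6.89 in the late tumours, against 5.51, 5.65, 5.72 and 5.58 at day 0. Myh1, a fast myosin, was 4.54 to 12.35 (median 8.66) in the late tumours, against 4.52, 4.67, 5.05 and 4.74 at day 0. Some late tumours were therefore at the day 0 level and others far above it. Of 24 keratinocyte and hair follicle genes 4 rose, 13 without late replicate 5, 7 without replicate 8, 8 without replicate 10 and 1 without day 0 replicate 1 or 2, and none rose in either pair. Krt14, a basal keratin, was 6.23 to 13.31 (median 12.73) in the late tumours, against 6.06, 8.10, 11.38 and 12.91 at day 0, so both groups spanned a wide range. Krt79, a keratin of sebaceous ducts, changed by 3.46 ± 0.85, with 0.73 in the low-gap pair. The part of skin, muscle or fat in the other rises was not tested.

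**Figure D5:**
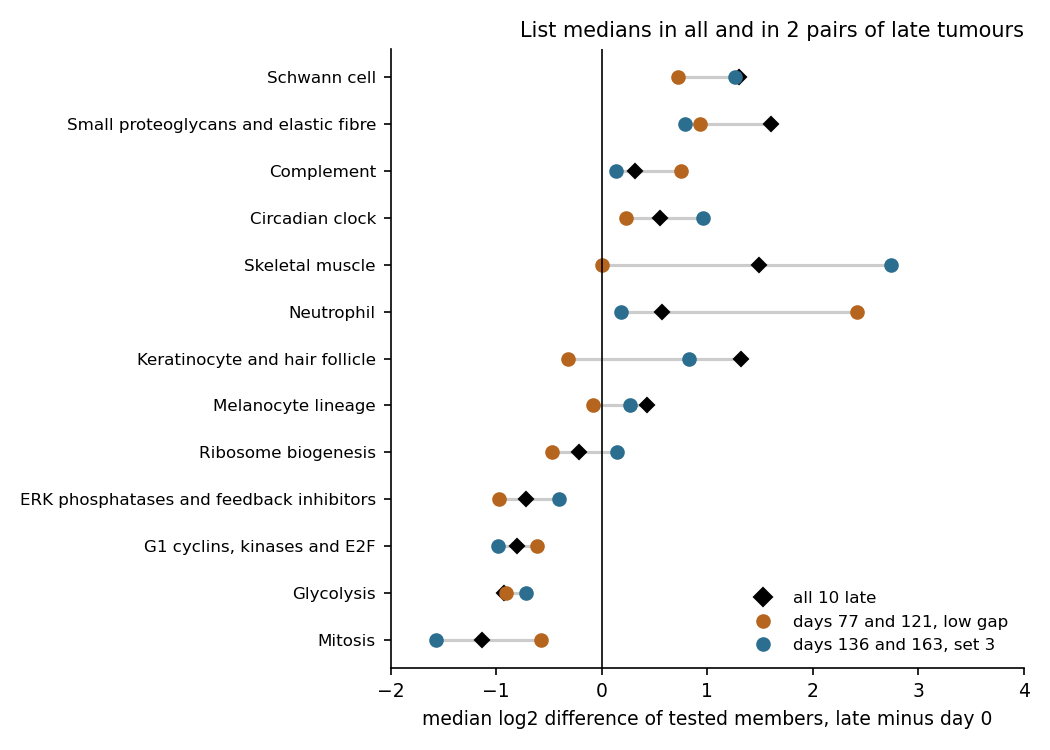
Median log2 difference from day 0 over the tested members of 13 gene lists, for all 10 late tumours (diamonds), the low-gap pair of days 77 and 121 and the pair of days 136 and 163 (circles). Glycolysis, G1 and ERK feedback lists stay below 0 and Schwann cell and proteoglycan lists above 0 in both pairs, while muscle is at 0.01 in the low-gap pair and 2.74 in the other.

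Circadian clock genes were higher in part. Of 17 tested 9 rose and 1 fell, and 6 had all late tumours above day 0. Hlf, a PAR bZIP output factor of the clock, was 7.11 to 8.85 (median 7.95) in the late tumours, against 6.19, 6.23, 5.93 and 6.25 at day 0. Nr1d2, the nuclear receptor REV-ERB beta, was 10.88 to 12.03 (median 11.54) in the late tumours, against 10.21, 10.24, 10.28 and 10.17 at day 0. Per3, a period gene, was 9.08 to 9.98 (median 9.50) in the late tumours, against 7.66, 8.23, 8.56 and 7.99 at day 0. No late tumour overlapped day 0 in these 3, with differences of 1.83 ± 0.24, 1.28 ± 0.19 and 1.39 ± 0.22. Tef, another PAR bZIP factor, changed by 0.86 ± 0.16 and Clock by 0.74 ± 0.14. Probe sets disagreed here, since only 1 of 3 was called for Tef, 1 of 2 for Nr1d2 and 2 of 6 for Per3, all of these higher and the rest not called. Arntl, which encodes the CLOCK partner BMAL1, fell by 0.52, with -0.27 in the pair of days 136 and 163, not called. The labels give no hour of collection, so time of day and group cannot be told apart. The list had 5 higher and 1 lower in the low-gap pair and 9 higher in the other.

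Glucocorticoid-induced genes rose in 8 of 17 and fell in 2, beside 26.3% and 20.1% of all genes. Tsc22d3, which encodes GILZ, was 8.23 to 11.07 (median 9.12) in the late tumours, against 7.46, 7.89, 7.64 and 6.71 at day 0, and Sult1a1, a sulfotransferase, changed by 2.76 ± 0.38, both without overlap. In the low-gap pair 2 members rose, near the share of all genes higher there (12.2%). In the pair of days 136 and 163 10 rose, where 19.2% of all genes did.

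Of 28 TGF-beta and BMP genes 8 were higher and 10 lower, beside 26.3% and 20.1% of all genes. Bmp2 was 6.56 to 8.31 (median 7.22) in the late tumours, against 11.36, 10.39, 10.24 and 10.28 at day 0. Bmp5 was 6.56 to 9.52 (median 8.36) in the late tumours, against 5.08, 5.34, 5.02 and 5.04 at day 0. Bmp2 was thus lower and Bmp5 higher in every late tumour, by -3.25 ± 0.42 and 3.01 ± 0.49. Inhba, the activin A subunit, changed by -2.30 ± 0.28 and Bmp4 by 1.81 ± 0.30, and both were called in each pair. Tgfb1 fell by 1.80, with -0.90 in the low-gap pair, not called. Of 28 WNT genes 10 were higher and 6 lower, beside the same shares. The R-spondin Rspo1 and the secreted antagonist Frzb rose by 2.33 and 1.86, and the target genes Notum, a WNT deacylase, and Lef1, a transcription factor, fell, with differences of -1.65 and -1.07, all 4 called in each pair.

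Among 14 genes of the BCL2 family 4 rose and 4 fell, beside 26.3% and 20.1% of all genes. In the low-gap pair none was higher and 2 were lower, beside 12.2% and 14.3% of all genes. Bcl2l11, which encodes the death activator BIM, was 8.11 to 10.35 (median 8.80) in the late tumours, against 10.97, 10.48, 10.38 and 11.26 at day 0. Bak1, a pore-forming effector of cell death, was 5.52 to 6.93 (median 6.36) in the late tumours, against 8.11, 8.34, 8.02 and 8.35 at day 0. Bcl2, the founding survival gene, was 7.78 to 9.13 (median 8.66) in the late tumours, against 7.63, 7.45, 7.41 and 7.31 at day 0. The 2 death genes were lower and Bcl2 higher without overlap. In the low-gap pair only Bak1 of these genes was called, with Bcl2l11 at -0.88 and Bcl2 at 0.45. Of 14 imprinted growth genes 5 fell and 3 rose. Dlk1, a paternally expressed regulator of progenitor cells, changed by -1.87 ± 0.29 and Mest by -1.36 ± 0.30, and Igf2 rose by 1.00, though not in the low-gap pair (0.54, not called).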

How the data were processed

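Tumour RNA was biotin-labelled and hybridised per the labels' protocols, and the authors deposited linear intensity values, 1 per probe set and array. Both RMA and MAS5 stand in the submitters' processing notes, with no version given. Which of them made the table is not said, and the genome build is not given in the sources used here. The members, gene lists and pairs of late tumours were chosen with earlier results of these data known.

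A pseudocount of 16 was added to the deposited intensities before log2 and quantile normalisation. Of 45101 probe sets, 34958 named 1 gene, 932 several and 9211 none. The probe set of highest mean was kept for each of 18194 genes, and 14319 lay above the 40th percentile in at least 3 arrays and were tested. Bak1, Erg, Gas6, Hdc, Kit, Ngfr, Nr1d2, Stc1, Tef, Top2a and Txnip have further probe sets, none of which was called. The pseudocount shrinks changes of weakly expressed genes. A single fit in limma 3.58.1 under R 4.3.3 held a mean per day for all 41 tumours, with days 63 to 163 pooled, and gave moderated tests with Benjamini-Hochberg adjustment over all genes. All adjusted p values are limma's. For the low-gap pair the other 8 late tumours were left out of that fit, and for the pair of days 136 and 163 they were kept as a separate group. The fit was tested on simulated data. Arrays have no sequencing depth, and their number limits precision.

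Genes were named by rule. The rule took the 12 largest rises and 12 largest falls without overlap, up to 6 called members per list and direction and 4 not called, out of 59 lists, and a fixed set, of which the text gives a part. A list is described by its counts and median beside those of all genes, with no test of the list. Lists share some genes, and several cell type markers are made by tumour cells as well. Spike-in set 1 was a log2 bioD under 12, set 2 a dap under 9.4 of the rest, and set 3 the remainder.

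Alternatives were other scalings, pseudocounts of 1 and 64, other filters, other uses of several probe sets, variance models, a fit of the 14 tumours, a minimum difference of 1, the Gapdh gap as covariate or limit, spike-in set and title number as blocks or subsets, early or late days alone, and each tumour left out. Promoter sequences are from RefSeq, build GRCm38.p6. Plots were made in Python 3.11.15 (matplotlib 3.10.9).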

Additional observations from a re-analysis of the deposited data

Results flagged for a closer look

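Of 184 groups of values checked, 12 held 1 tumour far from the rest by Dixon's test, which chance flags in about 1 in 20 groups. The values are mean log2 intensities of a gene list in that tumour unless a gene is named. The late tumour of day 136 was furthest in 4 lists, with 9.61 for ribosome biogenesis, 8.88 for ATF4 targets, 9.67 for collagens, the lowest of the 10, and 5.37 for placental prolactins. Late replicate 2, of day 63, had the highest B and plasma cell level at 7.72, and late replicate 4, of day 77, the highest Adipoq at 8.35. Among day 0 tumours, replicate 1 stood apart with 9.32 for cell cycle inhibitors, 10.70 for the respiratory chain, where it was lowest, and 9.32 for TGF-beta and BMP genes. Day 0 replicate 2 had the lowest Axl at 10.52, replicate 3 the highest Schwann cell level at 8.72, and replicate 4 the lowest clock gene level at 7.88.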

How the results depend on the processing

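The counts of 3772 higher and 2876 lower genes stayed within 1.5 times of themselves under the scalings, pseudocounts, filters on low values, mean of probe sets, variance models, fit of 14 tumours, title block and choices of days. With each tumour left out they ranged from 3138 to 4069 higher and from 2507 to 3027 lower, and the Gapdh gap difference from 1.97 to 2.43. The counts moved further under other settings. Testing every probe set gave 6127 higher and 6417 lower of 25803 probe sets, which cannot be set directly against counts of 14319 genes. A minimum difference of 1 gave 993 and 605. The Gapdh gap as covariate gave 1574 and 1894, and the low-gap pair alone 1743 higher. Within titles of 3 digits, 2 late against 2 day 0 tumours, the counts were 1946 and 1061. The spike-in set as a block gave 1548 lower and set 3 alone 1543. Higher genes were 56.7% of those called in all 10 tumours, 45.4% with the covariate and 46.1% in the low-gap pair. Against days 6 and 9 the late tumours had 2553 genes higher and 1976 lower. Those counts were 257 and 478 with the covariate, 476 and 559 in the low-gap pair and 1015 and 979 with the spike-in block. The counts of 4 immune lists under these 3 settings were added after seeing the data. The causes of these shifts were not tested.

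Of 162 genes named, 23 lost their call in the low-gap pair, 18 with the gap as covariate, 13 in set 3 alone and 34 within titles of 3 digits. Changes of sign were seen for Braf with the mean of its probe sets (-0.021), Lyz2 within titles of 3 digits (-0.14) and C1qa in the low-gap pair (0.021). Leaving out 1 tumour ended no call among these genes, and without day 0 replicate 4 Col1a1, C1qb and C1qc were called lower. No paired analysis was possible because tumours were numbered here by accession and share no label. Signal over background was not given, so dim probe sets have no detection limit.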

Other observations

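Genes of retinoid and alcohol metabolism, chosen after their values had been seen, were among those furthest from day 0. Aldh1a1, which makes retinoic acid from retinal, was 6.91 to 10.36 (median 8.98) in the late tumours, against 4.82, 5.11, 5.23 and 5.03 at day 0. Adh1, an alcohol dehydrogenase that also acts on retinol, was 8.90 to 11.34 (median 10.20) in the late tumours, against 6.05, 6.85, 6.64 and 5.78 at day 0. Crabp1, which binds retinoic acid in the cytoplasm, was 7.99 to 11.28 (median 9.22) in the late tumours, against 12.17, 12.58, 11.84 and 12.01 at day 0. The enzymes were higher and Crabp1 lower in every late tumour, by 3.80 ± 0.43, 3.89 ± 0.47 and -2.97 ± 0.48. The enzymes were called in both pairs, Aldh1a1 at 3.99 and 3.94, while Crabp1 was called in the pair of days 136 and 163 and not in the low-gap pair (-1.60, adjusted p = 0.0759).

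Further lists are given by their counts, beside 26.3% of all genes higher and 20.1% lower. Of 16 YAP and TAZ targets 3 rose and 7 fell, with 7 lower in the low-gap pair and 4 in the pair of days 136 and 163. Of 23 secreted inflammatory factors of senescent cells 1 rose and 6 fell. Of 26 chemokines 4 rose and 2 fell, and of 14 fatty acid oxidation genes 4 rose and 2 fell. Sesn1, a p53 and FOXO target that restrains growth signalling, was 9.66 to 10.62 (median 10.25) in the late tumours, against 8.57, 8.95, 8.82 and 8.03 at day 0, a difference of 1.55 ± 0.21 without overlap.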
